A study of Rattus norvegicus with 2 samples.

Results

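The insulin-like growth factor (IGF) system was described in single-cell RNA sequencing of optic nerve cells, as 10 genes taken by name: the ligands Igf1 and Igf2, the receptors Igf1r and Igf2r, and the binding proteins Igfbp2 to Igfbp7. All 10 are among the 25399 genes that the files list, and none was chosen by its level. The cells were mixed primary glial cultures from the optic nerve, in 1 library from wild-type (WT) Sprague Dawley rats and 1 from Nuc1 rats, which carry a spontaneous insertion in Cryba1, the gene of βA3/A1-crystallin. Both libraries are labelled with an age of 7 days after birth, whereas the methods for astrocyte cultures give pups of 2 days. No source used here gives the number of animals pooled in a library, so genotype, litter, culture and library cannot be told apart, nor can the sex of the animals.

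IGF-1 and IGF-2 are secreted peptides that signal through the type 1 receptor, a tyrosine kinase, while the type 2 receptor, also known as the cation-independent mannose 6-phosphate receptor, takes up IGF-2 and delivers it to lysosomes. The binding proteins hold the ligands outside the cell and, depending on the protein and its cleavage, limit or prolong their action. In the nervous system the meninges are a known source of IGF-2 and IGFBP-2, and microglia are a known source of IGF-1.

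After filtering, 1966 WT cells with a median of 14054 UMIs (molecular barcodes, each standing for 1 transcript caught in the cell) and 1780 Nuc1 cells with a median of 16568 were kept, and 2 cell barcodes occurred in both libraries. Cryba1 had 0 UMIs in either library, so it could not check the labels. UMIs of the Y-linked genes Eif2s3y and Kdm5d were found in 411 Nuc1 cells and in 1 WT cell, so the presence of male cells differed along with genotype. A level is a sum over all cells of 1 class in 1 library, scaled to 1000000 of their UMIs (CPM). With 1 library per genotype there was no replicate check and no test, and every interval is an exact 95% interval (Poisson for a level, conditional for a ratio) that covers counting error only.

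Clustering without the 10 genes gave 10 clusters, 6 of them fibroblast-like and rich in collagen transcripts. They held 1745 of the WT cells and 1263 of the Nuc1 cells, and are called by a leading gene. The Ccn3 cluster (698 WT and 399 Nuc1 cells) was led by Ccn3 and Cpxm2, the Penk cluster (497 and 179 cells) by Lum, Car3 and Penk, and the Cldn11 cluster (274 and 203 cells) had Cldn11 and Tgm2 among its leading genes. The Inmt cluster, led by Inmt and Cyp26b1, held 55 WT cells and 368 Nuc1 cells. These 2 genes summed to 286 CPM in its WT cells and 1742 CPM in its Nuc1 cells. Whether the cells of the Inmt cluster are alike in both libraries was not tested. Dividing cells formed the Top2a cluster (146 and 77 cells) and the Cdkn3 cluster (75 and 37 cells). The other classes were astrocyte-like cells (108 and 353 cells, led by Gfap), a cluster led by genes of motile cilia (14 and 103), a Ttr cluster (22 and 29), oligodendrocyte-lineage-like cells (52 and 5) and macrophage-like cells (15 and 2, led by Pf4 and Tyrobp). In the Ttr cluster the summed level of Ttr, Gldn and Nkx2-1 was 260 CPM for WT and 60010.2 CPM for Nuc1. Fibroblast markers summed there to 7676 CPM for WT and 4787 CPM for Nuc1. Whether the cells of the Ttr cluster are alike in both libraries was not tested. Another 35 cells of low depth stayed unnamed. The summed level of Col1a1, Col3a1, Dcn and Lum in the 6 fibroblast-like clusters was 11117 CPM for WT and 6668 CPM for Nuc1, and its part in the differences below was not tested.

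**Figure D1:**
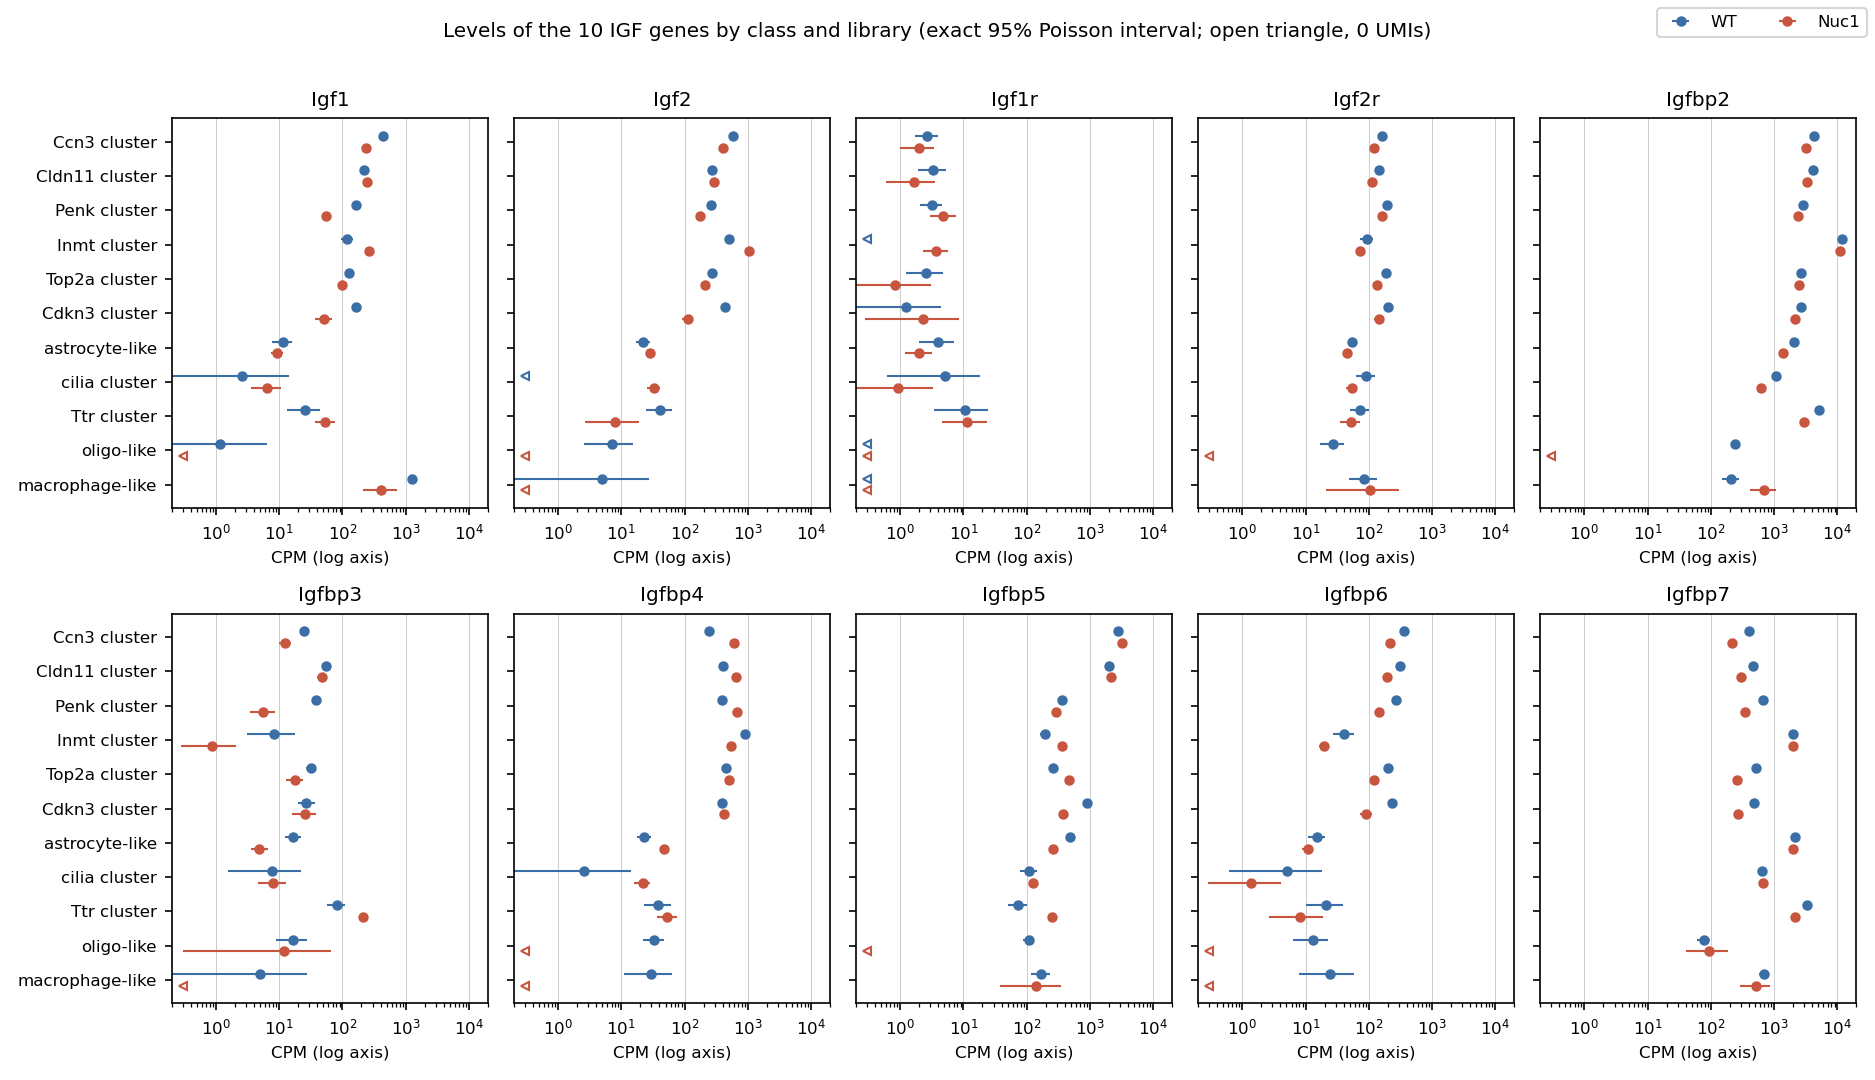
Level of each IGF gene (CPM, log axis) in 11 classes, with a blue point for the WT library, a red point for the Nuc1 library and a line for the exact 95% Poisson interval; an open triangle marks 0 UMIs and has no position on the axis. Igf1 reached 1242 CPM in WT macrophage-like cells, and Igfbp2 was highest in the Inmt cluster of either library.

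Igf1, the main mediator of growth hormone action and a local growth factor in many tissues (ENSRNOG00000004517), was measured in every fibroblast-like cluster and was highest in macrophage-like cells. In the WT library these 15 cells held 252 UMIs of Igf1, or 1242 CPM (interval 1094 to 1405), spread over 14 cells with at most 46 in 1 cell. The 2 Nuc1 macrophage-like cells held 12 UMIs, all in 1 cell, or 413 CPM (213 to 722), too few cells for a comparison. Next in the WT order came the Ccn3 cluster at 439 CPM (426 to 453), which was 2.03-fold above the Cldn11 cluster at 216 CPM. In the Nuc1 library the Inmt cluster stood at 259 CPM, the Cldn11 cluster at 242 CPM and the Ccn3 cluster at 239 CPM. The Cldn11 cluster did not differ beyond the interval from its neighbour on either side in that order. The WT ranking of the fibroblast types by Igf1 had the Ccn3 cluster apart at the top, whereas the Nuc1 ranking was nearly flat there.

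Between the libraries, Igf1 differed in opposite directions by cluster. In the Ccn3 cluster it was 239 CPM in the Nuc1 library against 439 CPM in the WT library, a log2 ratio of -0.88 (-0.97 to -0.79). In the Penk cluster it was 54.3 against 163 CPM, a log2 ratio of -1.58 (-1.80 to -1.38), and the share of cells with a UMI was 35.2% against 59.2%. In the dividing Cdkn3 cluster it was 50.9 against 165 CPM, at -1.70 (-2.19 to -1.24). The Inmt cluster went the other way, with 259 CPM in the Nuc1 library against 119 CPM in the WT library, at 1.11 (0.80 to 1.45), and the Cldn11 cluster differed little, at 0.16 (0.031 to 0.29). Of the 86 WT UMIs in the Inmt cluster, 34 came from 1 cell, and without the highest cell of each library the log2 ratio was 1.78 (1.38 to 2.20).

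Igf2, a growth factor that is imprinted and best known for its role before birth (ENSRNOG00000020369), was low outside the fibroblast-like clusters, at 40.5 CPM or less. In the WT library it was 573 CPM (558 to 588) in the Ccn3 cluster, 496 CPM in the Inmt cluster, 443 CPM in the Cdkn3 cluster and between 265 and 273 CPM in the other 3 fibroblast-like clusters. Of these neighbours in the WT order, the Inmt and Cdkn3 clusters did not differ beyond their intervals. In the Nuc1 library the Inmt cluster stood first at 1028 CPM (1002 to 1055), 2.5-fold above the Ccn3 cluster at 411 CPM. WT macrophage-like cells, which ranked first for Igf1, held 1 UMI of Igf2, and Nuc1 macrophage-like cells held 0.

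As with Igf1, the sign of the difference in Igf2 depended on the cluster. It had a log2 ratio of -0.48 (-0.55 to -0.41) in the Ccn3 cluster, -0.60 (-0.73 to -0.48) in the Penk cluster and -1.98 (-2.30 to -1.67) in the Cdkn3 cluster, where the level was 112 against 443 CPM. In the Inmt cluster it was 1.05 (0.90 to 1.21). The Cldn11 cluster, at 288 against 270.1 CPM, had an interval that included 0 (-0.025 to 0.21). Of the 5886 Nuc1 UMIs of Igf2 in the Inmt cluster, 445 came from 1 cell, and without the highest cell of each library the log2 ratio was 1.22 (1.05 to 1.40).

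At a finer clustering the Inmt cluster held a Vcam1-led group (35 WT and 254 Nuc1 cells) and an Apod-led group (18 and 113 cells), and the higher Igf2 of the Nuc1 library lay in the Apod-led group. There Igf2 was 2113 CPM (2048 to 2179) in the Nuc1 library and 382 CPM (311 to 465) in the WT library, a log2 ratio of 2.47 (2.18 to 2.77). In the Vcam1-led group it was 484 and 519 CPM, at -0.10 (-0.30 to 0.11). Igf1 was higher in the Nuc1 library in either group, at 2.59 (1.86 to 3.44) in the Apod-led group and 0.56 (0.18 to 0.96) in the Vcam1-led group. Igfbp7 split the groups as well, at -0.77 (-0.90 to -0.64) and 0.42 (0.31 to 0.52). The WT values of the Apod-led group rest on 18 cells.

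**Figure D2:**
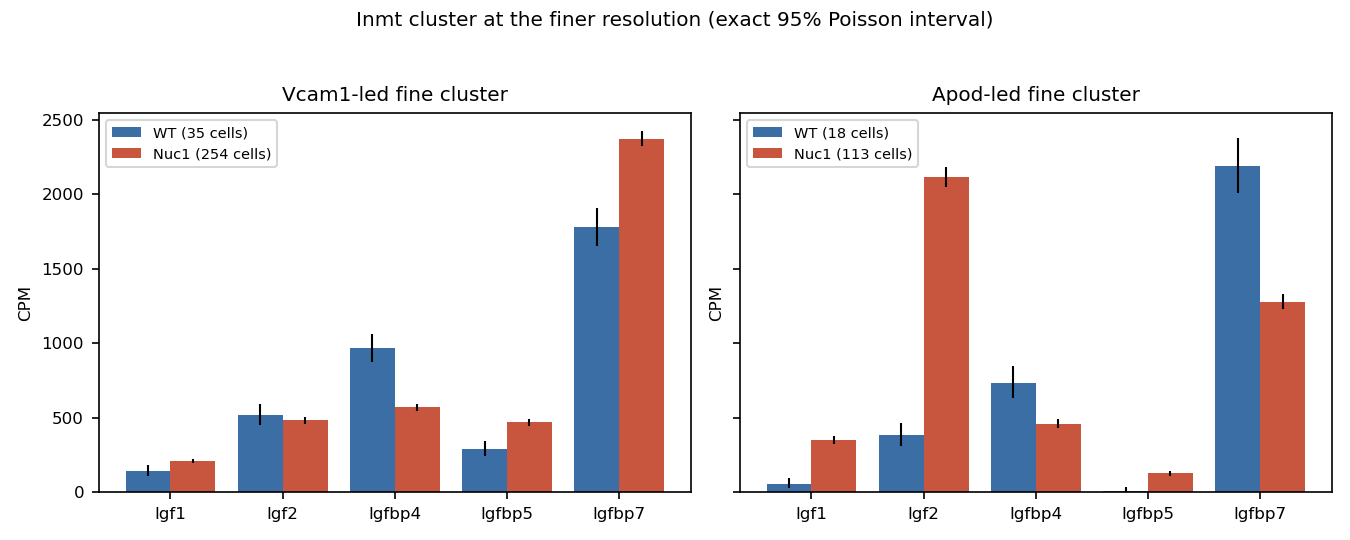
Level (CPM) of 5 IGF genes in the Vcam1-led and the Apod-led groups of the Inmt cluster, with blue bars for the WT library, red bars for the Nuc1 library and lines for exact 95% Poisson intervals. Igf2 stands at 2113 CPM in the Nuc1 library and 382 CPM in the WT library in the Apod-led group, and at 484 and 519 CPM in the Vcam1-led group.

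Many fibroblast-like cells carried transcripts of both ligands. After each cell was thinned to 5000 UMIs, which leaves out shallower cells (8 WT and 4 Nuc1 cells of the Ccn3 cluster, for example), 47.4% of 690 WT cells of the Ccn3 cluster had a UMI of each ligand, and 34.2% of 395 Nuc1 cells. Cells with Igf2 alone made up 15.1% and 26.8% of that cluster. In the Inmt cluster 16.4% of 55 WT cells and 30.5% of 367 Nuc1 cells had both. Among astrocyte-like cells 1.87% of 107 WT and 1.15% of 347 Nuc1 cells had both, with median depths of 25874 and 24132 UMIs before thinning, against 13721 and 15157 UMIs over the fibroblast-like clusters. The part of free RNA in these shares was not tested.

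**Figure D3:**
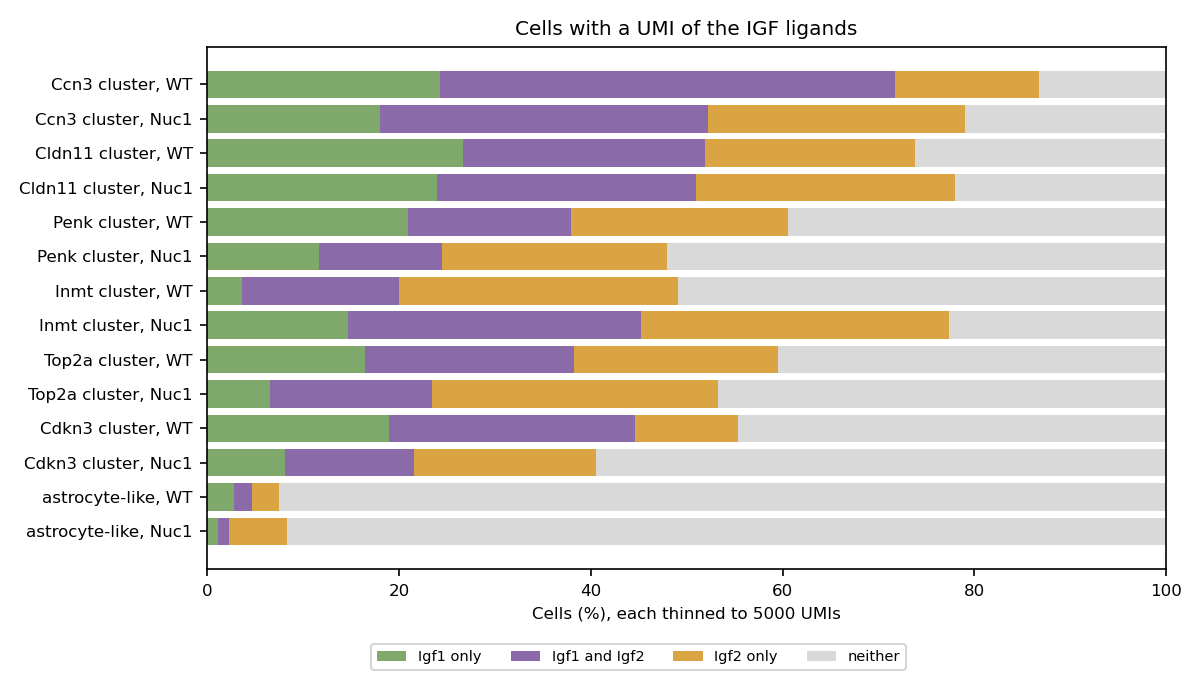
Share of cells (%) with a UMI of Igf1 only, of Igf1 and Igf2, of Igf2 only or of neither, after thinning each cell to 5000 UMIs, 1 bar per class and library. In WT cells of the Ccn3 cluster 47.4% held both ligands, and 92.5% of WT astrocyte-like cells held neither.

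The promoters of the ligands are shown because both genes were highest, among fibroblast types, in the Ccn3 cluster of the WT library, and were higher for Nuc1 than for WT in the Inmt cluster. The sequences are the 250 bases before the start that RefSeq annotates in the assembly GRCr8, written 5′ to 3′ on the strand of the gene. Capitals mark a match on either strand to the TATA box (TATAAA), the CCAAT box, a GC box (GGGCGG) or an E-box (CACGTG). The libraries capture the 3′ end of transcripts and cannot tell which of the listed starts was used. RefSeq lists 2 starts of Igf2, 3505 bases apart, of which the second is shown.
Igf1, chr7:24172282-24172531, plus strand: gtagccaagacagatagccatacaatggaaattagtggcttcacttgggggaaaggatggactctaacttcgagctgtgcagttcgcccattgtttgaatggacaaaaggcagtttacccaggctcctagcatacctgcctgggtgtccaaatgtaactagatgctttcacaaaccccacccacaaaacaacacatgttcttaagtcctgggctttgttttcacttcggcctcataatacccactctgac
Igf2, chr1:207250476-207250725, minus strand: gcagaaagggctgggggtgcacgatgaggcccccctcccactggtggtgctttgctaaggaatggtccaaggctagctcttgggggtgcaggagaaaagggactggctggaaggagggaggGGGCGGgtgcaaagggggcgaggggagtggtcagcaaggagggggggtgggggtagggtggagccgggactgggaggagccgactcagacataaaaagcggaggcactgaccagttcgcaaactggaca
The Igf1 window held none of the 4 motifs and was 46.8% G and C, and the Igf2 window shown held 1 GC box and was 63.6% G and C. The window of the first Igf2 start, not shown, held none of the 4 motifs and was 62.4% G and C. Over 33469 windows of the same length the median was 51.2%, and 30.5% held a GC box, 34.0% CCAAT, 12.9% TATAAA and 5.59% CACGTG.

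Transcripts of Igf1r, the signalling receptor (ENSRNOG00000014187), were sparse in every class. Over the fibroblast-like clusters 80 WT and 62 Nuc1 UMIs were counted, which is 2.74 CPM in either library, with a log2 ratio of -0.0037 (-0.51 to 0.49). The interval leaves room for a difference of about 0.5 on the log2 scale in either direction. Astrocyte-like cells held 11 and 18 UMIs, at 3.9 CPM (1.95 to 6.98) and 2 CPM (1.18 to 3.16), and the interval of that ratio also included 0. The highest level, in the Ttr cluster at 10.7 and 11.3 CPM, rests on 5 and 7 UMIs. In the WT Inmt cluster Igf1r had 0 UMIs (exact upper limit 5.12 CPM), and the Nuc1 level of 3.67 CPM is under that limit, as it is under 4.17 CPM, the level of 3 counts.

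Igf2r, the clearance receptor (ENSRNOG00000014997), was found in most fibroblast-like cells and was lower in the Nuc1 library in each of the 6 clusters. In the Penk cluster it was 159 CPM against 194 CPM, a log2 ratio of -0.29 (-0.42 to -0.15), and in the Ccn3 cluster 123 against 164 CPM, at -0.41 (-0.54 to -0.28). The 6 log2 ratios lay between -0.46 and -0.29, and the interval of the Inmt cluster alone, at 72.1 against 93.1 CPM, included 0. The Inmt cluster had the lowest Igf2r of the 6 clusters in either library. It had the highest Igf2 in the Nuc1 library, but the Ccn3 cluster had the highest in the WT library. Across 18 pairs of class and library, Igf2r and Igf2 had a Pearson r of 0.77 on log2 (CPM + 1). Igf2r in astrocyte-like cells was 44.9 against 54.6 CPM, at -0.28 (-0.55 to -0.0039), and oligodendrocyte-lineage-like cells of the WT library had 26.9 CPM.

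**Figure D4:**
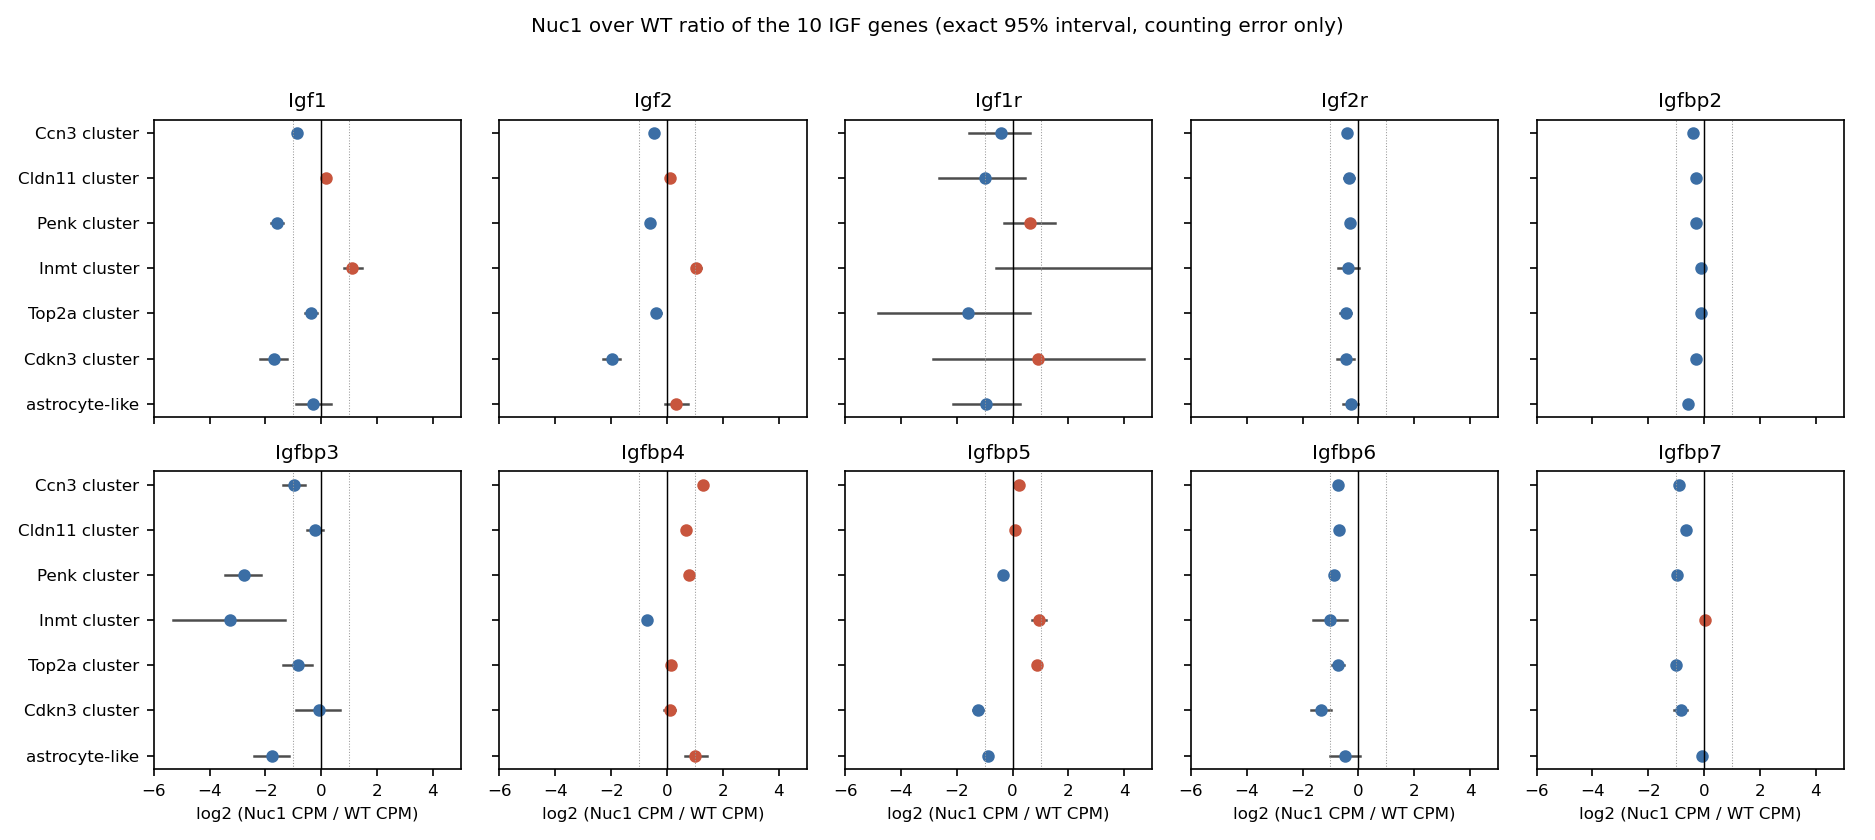
Log2 ratio of Nuc1 CPM over WT CPM for each IGF gene in the 6 fibroblast-like clusters and in astrocyte-like cells, with points for the ratio (red above 0, blue below 0), lines for exact 95% intervals of counting error, a solid line at 0 and dotted lines at a 2-fold difference; for Igf1r in the Inmt cluster, at 0 UMIs in the WT library, only the interval is drawn. Igf2r, Igfbp2, Igfbp3 and Igfbp6 lie below 0 in all 6 clusters, and Igf1 and Igf2 lie above 0 in the Inmt cluster and below it in 4 others.

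Igfbp2, a secreted carrier that can also attach to matrix and to integrins (ENSRNOG00000016957), was found in nearly every fibroblast-like cell and was highest in the Inmt cluster. There it reached 11589.8 CPM in the WT library, 2.27-fold above the next class, the Ttr cluster, and 10779 CPM in the Nuc1 library, 3.26-fold above the Cldn11 cluster. The other 5 fibroblast-like clusters lay between 2615 and 4210.3 CPM in the WT library. In all 6 the Nuc1 level was lower, with log2 ratios between -0.40 in the Ccn3 cluster and -0.10 in the Inmt cluster. Yet over the 6 clusters pooled Igfbp2 was higher in the Nuc1 library, at 4866 against 3675 CPM (log2 ratio 0.40, interval 0.39 to 0.42). The Inmt cluster gave 25.3% of the fibroblast-like UMIs of the Nuc1 library and 2.47% of those of the WT library. With WT levels in every cluster and the Nuc1 shares of the clusters, the pooled level would be 5595 CPM, a log2 difference of 0.61 from the shares, and the difference within clusters was -0.20.

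**Figure D5:**
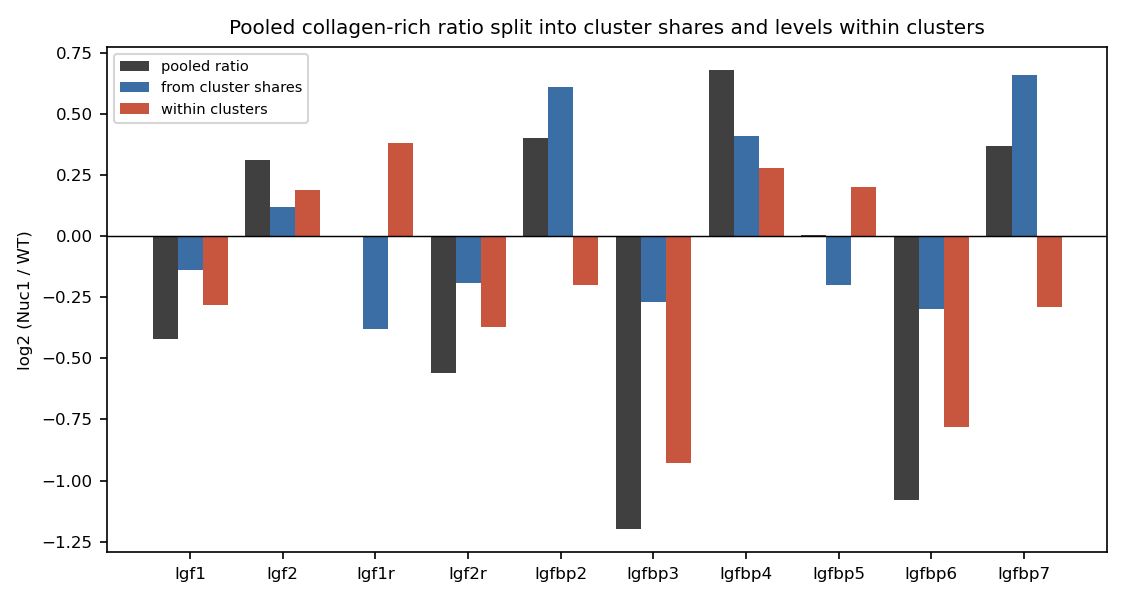
Log2 ratio of Nuc1 over WT for each IGF gene over the 6 fibroblast-like clusters pooled (dark bars), split into the part given by the cluster shares at WT levels (blue bars) and the part given by levels within clusters (red bars); the blue and red bars add to the dark bar. For Igfbp2 and Igfbp7 the parts have opposite signs, at 0.61 and -0.20 and at 0.66 and -0.29.

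Igfbp7, a related protein with low affinity for the IGFs (ENSRNOG00000002050), showed the same split. It was lower in the Nuc1 library in the 5 fibroblast-like clusters other than the Inmt cluster, each with an interval below 0. In the Penk cluster it was 345 against 672 CPM, a log2 ratio of -0.96 (-1.05 to -0.88). In the Inmt cluster it was 2006 against 1969.6 CPM, with an interval that included 0 (-0.054 to 0.11). The pooled ratio was nevertheless 0.37 (0.34 to 0.40), made of 0.66 from the cluster shares and -0.29 within clusters. Of the 10 genes, it was also the one with, in both libraries, a higher level in astrocyte-like cells than in the pooled fibroblast-like clusters of the same library, at 2095 CPM (381% of the fibroblast-like level) in the WT library and 1967 CPM (277%) in the Nuc1 library. The Ttr cluster was higher still, at 3295 and 2145 CPM. In macrophage-like cells of the WT library 136 of 138 UMIs of Igfbp7 lay in 1 cell.

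Igfbp5, which binds matrix and is abundant in connective tissue (ENSRNOG00000017206), was highest in another fibroblast type than Igfbp2. It was 2751 CPM in the WT library and 3237 CPM in the Nuc1 library in the Ccn3 cluster, and 2028 and 2179.6 CPM in the Cldn11 cluster. The Inmt cluster, where Igfbp2 was highest, had 192 and 368 CPM of Igfbp5. The pooled ratio was 0.0054 (-0.016 to 0.026), but single clusters differed: the Cdkn3 cluster had 377 against 886 CPM, a log2 ratio of -1.23 (-1.41 to -1.06), and the Top2a cluster 469.5 against 258 CPM, at 0.87 (0.74 to 0.99). Within the Inmt cluster 72 of the 138 WT UMIs lay in 1 cell, and the log2 ratio of 0.94 was 1.91 (1.56 to 2.29) without the highest cell of each library.

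Igfbp2 and Igfbp5 are neighbours on chromosome 9 in GRCr8, transcribed towards each other from starts that lie 49376 bases apart. Their promoter windows are shown because the genes were highest in different fibroblast types, with the same capitals as above.
Igfbp2, chr9:81864561-81864810, plus strand: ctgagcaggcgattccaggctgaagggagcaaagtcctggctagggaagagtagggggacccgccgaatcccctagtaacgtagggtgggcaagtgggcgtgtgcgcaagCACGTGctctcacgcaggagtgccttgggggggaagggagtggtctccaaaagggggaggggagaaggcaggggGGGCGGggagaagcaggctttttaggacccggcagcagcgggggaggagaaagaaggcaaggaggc
Igfbp5, chr9:81914188-81914437, minus strand: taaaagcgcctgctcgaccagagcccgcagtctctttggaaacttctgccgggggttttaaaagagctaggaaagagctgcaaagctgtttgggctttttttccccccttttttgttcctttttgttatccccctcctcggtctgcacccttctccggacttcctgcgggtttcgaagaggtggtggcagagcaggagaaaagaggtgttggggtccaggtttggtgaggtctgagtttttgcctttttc
The Igfbp2 window was 64% G and C and held 1 GC box and 1 E-box, whereas the Igfbp5 window was 51.6% G and C and held none of the 4 motifs. All 10 genes had a window in the table, with 11 windows in all. TATAAA was found in that of Igfbp4 alone, 40 bases before the start, and CCAAT in none. The Igf2r window held 2 GC boxes and 2 E-boxes, and the Igfbp7 window 4 GC boxes.

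Igfbp4, a carrier that mostly withholds IGFs until PAPP-A cleaves it (ENSRNOG00000010635), was higher in the Nuc1 library in the 3 largest fibroblast-like clusters of the WT library. In the Ccn3 cluster it was 601 against 244 CPM, a log2 ratio of 1.30 (1.22 to 1.38), with UMIs in 92.7% against 74.4% of cells. In the Penk cluster it was 677 against 391 CPM, at 0.79 (0.72 to 0.87), and in the Cldn11 cluster 649.6 against 402 CPM, at 0.69 (0.60 to 0.78). The Inmt cluster again had the opposite sign, with 536 against 888 CPM, at -0.73 (-0.85 to -0.60). The WT order, with the Inmt cluster 1.93-fold above the next class, was not kept in the Nuc1 library, where the Penk, Cldn11, Ccn3 and Inmt clusters lay between 536 and 677 CPM.

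Igfbp6, which binds IGF-2 in preference to IGF-1 (ENSRNOG00000010977), was lower in the Nuc1 library in all 6 clusters, each with an interval below 0. The log2 ratios lay between -1.34 in the Cdkn3 cluster and -0.68 in the Cldn11 cluster. In the Ccn3 cluster it was 217 against 360.2 CPM, and UMIs were found in 74.2% against 92.3% of cells. Over the clusters pooled it was 137 against 288 CPM, at -1.08 (-1.14 to -1.02). The Inmt cluster had the least Igfbp6 of the fibroblast types in either library, at 40.3 CPM in the WT library and 19.7 CPM in the Nuc1 library.

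Igfbp3, the main carrier of IGFs in serum (ENSRNOG00000061910), was low and uneven in these cells. Pooled over the fibroblast-like clusters it was 14.9 CPM (338 UMIs) in the Nuc1 library and 34.3 CPM (1000 UMIs) in the WT library, a log2 ratio of -1.20 (-1.38 to -1.02). In the Penk cluster it was 5.6 against 38.1 CPM, at -2.76 (-3.46 to -2.14), and in the Cldn11 cluster 46.7 against 54.8 CPM, with an interval that included 0 (-0.52 to 0.052). A few cells carried much of it: 98 of the 170 Nuc1 UMIs in the Cldn11 cluster lay in 1 cell, and without the highest cell of each library the ratio there was -1.22 (-1.62 to -0.83). The Ttr cluster had the highest level of either library, 81 CPM in the WT library and 215 CPM in the Nuc1 library, but 103 of the 133 Nuc1 UMIs there came from 1 cell, and without the highest cell of each library the interval of the ratio included 0 (-0.44 to 1.46).

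In astrocyte-like cells both ligands stood at about the same share of their fibroblast-like level as fibroblast markers did. Summed Col1a1, Col3a1, Dcn and Lum in these cells was 4.48% of its fibroblast-like level for WT and 6.30% for Nuc1. Igf1 was at 4.44% and 4.84% of its own fibroblast-like level, and Igf2 at 5.85% and 5.91%. Without the 17 WT and 62 Nuc1 cells that had over 300 CPM of those 4 fibroblast genes, Igf1 was 0.872 CPM (0.106 to 3.15) in the WT library and 0.71 CPM (0.231 to 1.66) in the Nuc1 library, and Igf2 was 3.05 CPM (1.23 to 6.29) and 2.84 CPM (1.74 to 4.39). No difference in the ligands between the libraries was read from astrocyte-like cells.

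Igfbp2, Igfbp3, Igfbp5, Igfbp7 and Igf2r stood in astrocyte-like cells at 18.4% or more of their fibroblast-like level, as did the sparse Igf1r, on 11 WT and 18 Nuc1 UMIs. With the same cells left out, Igfbp2 was 1332 CPM (1305 to 1359) in the Nuc1 library against 2044 CPM (1986 to 2104) in the WT library, where all astrocyte-like cells gave 1371 and 2030.1 CPM and a log2 ratio of -0.57 (-0.61 to -0.52). Igfbp5 was 151 against 386 CPM, where all cells gave 263 and 489 CPM and a ratio of -0.89 (-0.99 to -0.80). Igfbp7 was 2108 and 2048 CPM, a small difference with the opposite sign to that over all astrocyte-like cells (1967 and 2095 CPM). Igfbp3 was 3.55 against 19.2 CPM, as low in the Nuc1 library as over all astrocyte-like cells (4.88 against 16.7 CPM, a log2 ratio of -1.77, interval -2.40 to -1.15). Igfbp4, 46.8 against 23 CPM over all astrocyte-like cells at 1.02 (0.64 to 1.42), was 5.54 against 7.41 CPM without those cells. Over all genes past 100 UMIs the median log2 ratio in astrocyte-like cells was -0.11, so ratios near that value are close to the typical gene.

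A difference of at least 2-fold was found for 1 gene at most in some clusters and for up to 4 in others. The count covers genes with at least 20 UMIs over the libraries, with a sum of 0 set to 3 counts. In the Ccn3 cluster Igfbp4 was the 1 gene of 10 at least 2-fold higher in the Nuc1 library, against 3.80% of all genes, and none was lower by that size, against 6.11%. In the Penk cluster 2 of 10 were lower, Igf1 and Igfbp3, against 5.73% of all genes, and 0 higher, against 3.30%. The Cldn11 and Top2a clusters had 0 in either direction, where all genes gave 4.18% higher and 5.06% lower in the Cldn11 cluster, and 3.49% and 4.15% in the Top2a cluster. In the Inmt cluster 2 of 9 were higher, Igf1 and Igf2, against 8.46%, and 1 was lower, Igfbp6, against 3.93%. Without the highest cell of each library Igfbp6 fell short of 2-fold there, at -0.91 (-1.56 to -0.20). The Cdkn3 cluster, with 37 Nuc1 cells, had 4 of 9 lower, Igf1, Igf2, Igfbp5 and Igfbp6, against 9.04%, and 0 higher, against 3.43%. In astrocyte-like cells 1 was higher, Igfbp4, against 3.97%, and 1 lower, Igfbp3, against 7.17%. Over the fibroblast-like clusters pooled, 2 of 10 were lower, Igfbp3 and Igfbp6, against 5.04%, and 0 higher, against 6.93%. Neither stayed past 2-fold with the cluster shares of both libraries held at those of Nuc1, with within-cluster log2 values of -0.93 and -0.78. In the cilia cluster, with 14 WT cells, 2 of 7 were higher, Igf2 and Igfbp4, against 7.16%, and 0 lower, against 5.19%, and 46 of the 70 Nuc1 UMIs of Igf2 lay in 1 cell. In the Ttr cluster 3 of 8 were higher, Igf1, Igfbp3 and Igfbp5, against 6.83%, and Igf2 was lower, against 6.34%. Without the highest cell of each library all 4 of these ratios had intervals that included 0.

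The counts of the remaining classes rest on few cells. Oligodendrocyte-lineage-like cells, 5 in the Nuc1 library, had 0 of 5 higher, against 9.10%, and 2 lower, Igfbp2 and Igfbp5, against 11.8%. Of the 92 WT UMIs of Igfbp5 there, 82 lay in 1 cell, and without it the interval included 0. Macrophage-like cells, 2 in the Nuc1 library, had 1 of 5 higher, Igfbp2 on 20 against 42 UMIs, against 8.36%, and 1 lower, Igf1, against 16.4%. All 20 Nuc1 UMIs of Igfbp2 lay in 1 cell, and the 9 astrocyte markers summed to 17457 CPM in the Nuc1 macrophage-like cells, above their macrophage markers at 13738 CPM, where the WT cells had 6369 and 16080.4 CPM. The part of astrocyte RNA in these values was not tested. In the unnamed cells 2 of 2 were higher, Igfbp2 and Igfbp5, against 18.8%, and 0 lower, against 5.81%.

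The enzymes that cleave binding proteins, and their inhibitors, were listed as 10 genes, of which 9 had at least 20 UMIs in the pooled fibroblast-like clusters. Of these, 1 was at least 2-fold higher in the Nuc1 library and 1 lower, near the 6.93% and 5.04% of all genes, with a median log2 ratio of -0.20, where all genes past 100 UMIs had 0.022. Pappa2, a metalloprotease that cleaves IGFBP-3 and IGFBP-5, was 3.57 CPM in the Nuc1 library against 1.13 CPM in the WT library, at 1.66 (1.06 to 2.29), on 81 and 33 UMIs. In the Inmt cluster Pappa2 was 6.11 against 6.95 CPM, and in the Ccn3 cluster 1.47 against 1.38 CPM. Either interval included 0. In the Penk cluster it was 3.82 against 0.928 CPM, at 2.04 (0.71 to 3.49), and in the Cdkn3 cluster it had 9 against 0 UMIs. The part of the cluster shares in the pooled ratio of Pappa2 was not tested. Adamts1, a metalloprotease of the ADAMTS family, was 13.1 against 32.3 CPM, at -1.30 (-1.49 to -1.11). Htra1, a serine protease that can cleave binding proteins, was, among fibroblast types, at least 2-fold lower in the Ccn3, Cldn11 and Inmt clusters, with log2 ratios between -1.31 and -1.07. Pappa was not used here.

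Among receptor substrates and adaptors, 10 genes passed 20 UMIs in the pooled clusters, with 0 at least 2-fold higher, against 6.93% of all genes, and 2 lower, against 5.04%. Irs2, which couples the IGF and insulin receptors to PI3-kinase, was 18.3 CPM in the Nuc1 library against 37.8 CPM in the WT library, a log2 ratio of -1.05 (-1.22 to -0.89). Its ratio was below 0 in all 6 clusters, between -2.06 and -0.74, each with an interval below 0, and in astrocyte-like cells it was 20.6 against 76.2 CPM, at -1.89 (-2.18 to -1.60). Grb14, an adaptor that dampens insulin receptor signalling, was 8.56 against 21.4 CPM, at -1.32 (-1.56 to -1.08). Irs1 was 5.07 against 8.33 CPM, at -0.72 (-1.05 to -0.39), on 115 and 243 UMIs.

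Ptpn1 encodes PTP1B, the phosphatase that acts on the insulin and IGF receptors and that the study's other experiments concern. The paper reports higher PTP1B activity in cultured Nuc1 astrocytes than in WT astrocytes. Only RNA was counted here, which does not measure enzyme activity. In the pooled fibroblast-like clusters Ptpn1 RNA was 107 CPM in the Nuc1 library against 56.7 CPM in the WT library, a log2 ratio of 0.91. The part of the cluster shares in this pooled ratio was not tested. In the Ccn3 cluster Ptpn1 was 111 against 54.2 CPM, a ratio of 1.03 with an interval above 0. It was also at least 2-fold higher in the Cldn11 cluster. In the Inmt cluster it was 115 against 126 CPM, with an interval that included 0 (-0.45 to 0.20). In astrocyte-like cells it was 37.2 against 36.9 CPM, at 0.011 (-0.31 to 0.34). Insr, the insulin receptor, was 6.35 against 6.75 CPM in the pooled clusters, with an interval that included 0 (-0.41 to 0.23).

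For the remaining lists, too, the shares of all genes past 2-fold in the pooled fibroblast-like clusters were 6.93% higher and 5.04% lower. Of 18 genes of PI3-kinase, AKT, mTOR and FOXO signalling, 1 was at least 2-fold higher, Tsc1 at 2.03 against 0.994 CPM on 46 and 29 UMIs, and 0 were lower, with a median log2 ratio of 0.037. Of 4 further ligands, receptors and carriers that passed 20 UMIs, Ins2 (34 against 2 UMIs) and Igfbpl1 (17 against 4 UMIs) were higher. For Ins2, 33 Nuc1 and 2 WT UMIs lay in the Inmt cluster, where the log2 ratio of 1.05 had an interval that included 0 (-0.91 to 4.16). For Igfbpl1, 13 Nuc1 and 2 WT UMIs lay in the dividing Top2a cluster. The part of the cluster shares in these pooled ratios was not tested. The 3 Igf2bp genes, whose proteins bind Igf2 messenger RNA, had 0 in either direction and a median of 0.18.

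Across all 11 classes the order by level was compared between the libraries. Spearman's rho, a description with no test, ran from 0.75 for Igfbp4 to 0.96 for Igf2r, with Igf1r, the sparsest gene, at 0.41. The points of 1 library share its free RNA, and classes differ in cell number. Across 18 pairs of class and library with at least 20 cells, Igf2 and Igf1 had a Pearson r of 0.87 on log2 (CPM + 1), as had Igf2 and Igfbp4. Igfbp6 and Igf2r stood at 0.88, and Igfbp7 had values of 0.51 or less with the other 9. Among 8503 genes with at least 500 UMIs, the patterns closest to Igf2 included those of Tbx18 (r = 0.96) and Snai2 (0.95). For Igfbp6 they were Grb10 (0.98), Sfrp4 (0.96) and Dcn (0.96), for Igfbp4 Crabp2 (0.97), Cd248 (0.97) and Lamb1 (0.96), for Igf1 Arhgef1 (0.96) and Gpc6 (0.95), and for Igfbp7 Ctsh (0.91), B2m (0.90) and Ctsc (0.90).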

How the data were processed

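The authors prepared 1 library per genotype with the 10x Genomics Chromium 3′ kit (v3.1, input of 5092 WT and 5125 Nuc1 cells), ran Cell Ranger 3.1.0 with STAR 2.7 per the submitters' processing notes, and deposited raw UMI counts per gene and cell barcode (34517542 UMIs in 2107 WT barcodes and 35794685 in 1929 Nuc1 barcodes). The genome build is not given in the sources used here. For this report, barcodes needed 500 or more genes and no more than 20% of UMIs from 13 mitochondrial genes. Scrublet (scanpy 1.11.5, expected rate of 2%) marked 2 WT and 13 Nuc1 doublets, which were left out, and others can remain. Libraries were integrated by anchors on 2000 variable genes without the IGF genes, and clustered in Seurat 5.3.0 (R 4.3.3; 30 components, resolution 0.5, seed 1). The submitters' notes name Seurat 3.1.0 and 3.1.1.

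Clusters were named from marker lists. Fibroblast-like clusters had over 4000 CPM of the fibroblast list, leaving out the cluster richest in Ttr, Gldn and Nkx2-1. Oligodendrocyte-lineage-like and macrophage-like cells fell into 1 cluster of 109 cells and were split by at least 10 UMIs of either list, with 4 and 2 cells between 5 and 19 UMIs. These limits were set after seeing the data. Leading genes were ranked by their CPM, plus 20, relative to the average of all other clusters, plus 20. UMIs were summed per class and library, and no test was made. The members and gene lists were chosen with earlier results of these data known. Genes named outside the 10 members are those past 2-fold with at least 20 UMIs, Insr, Irs1, Irs2 and Ptpn1, and the 3 genes of highest Pearson r, leaving out unnamed loci and 1 gene that is not reported here. Of the listed genes, Pappa, Irs4 and H19 were not used here. Symbols listed more than once (99) were not used for likeness. The intervals were tested on simulated sums with known ratios for the pooled fibroblast-like comparison (12381 genes). The outcome is not given here, and the intervals do not cover the spread between cells or animals. Alternatives (filters, doublets, integration, resolution, scaling, depth, cluster weights) are given in the closing section. The Python steps ran under Python 3.11.15 with numpy 2.4.6, scipy 1.17.1 and matplotlib 3.10.9, and TMM factors came from edgeR 4.0.16.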

Additional observations from a re-analysis of the deposited data

Results flagged for a closer look

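For 5 of the 10 genes the Nuc1 over WT ratio had intervals on opposite sides of 0 in different classes, among classes with at least 20 cells and genes with at least 20 UMIs in each library. The difference between classes was not tested, since each value comes from 1 library per genotype. Igf1 had a log2 ratio of 1.11 in the Inmt cluster and -1.70 in the Cdkn3 cluster. Igf2 had 1.05 in the Inmt cluster and -1.98 in the Cdkn3 cluster, which held 37 Nuc1 cells. Igfbp4 had 1.30 in the Ccn3 cluster and -0.73 in the Inmt cluster. Igfbp3 had 1.41 in the Ttr cluster, where 103 of 133 Nuc1 UMIs lay in 1 cell, and -2.76 in the Penk cluster. Igfbp5 had 1.82 in the Ttr cluster, where 127 of 158 Nuc1 UMIs lay in 1 cell, and -1.23 in the Cdkn3 cluster. Without the highest cell of each library, the Ttr ratio of Igfbp5 was 0.38 (-0.51 to 1.30).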

How the results depend on the processing

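No paired analysis was possible because there is only 1 WT and 1 Nuc1 library, and for the same reason no replicate could be left out. The ratios were recomputed under 15 alternatives for the pooled fibroblast-like clusters and 14 for astrocyte-like cells, 1 choice at a time. Leaving out Nuc1 astrocyte-like cells with a UMI of Eif2s3y or Kdm5d was chosen after seeing the data. Weighting the 6 clusters equally reversed the pooled log2 ratios of Igf2 (-0.062), Igfbp2 (-0.21) and Igfbp7 (-0.41) and left 0 members at least 2-fold lower. In astrocyte-like cells Igfbp4 reversed to -0.42 without cells rich in fibroblast markers, and a 10% mitochondrial limit moved it to 3.20, on 4 WT UMIs, and Igfbp2 to -1.41. Igfbp7, near 0 there, reversed to 0.077 under TMM scaling, 0.02 at a median log2 ratio of 0 and 0.042 without cells rich in fibroblast markers. The number of astrocyte-like members at least 2-fold higher became 0 with no doublets left out, without cells rich in fibroblast markers and without cells with Y-linked UMIs. The number lower became 2 with a minimum of 200 genes, with no doublets left out, with a MAD limit, and at resolutions of 0.2 and 1.0. It became 3 at a 10% mitochondrial limit and without cells rich in fibroblast markers, and 4 without cells with Y-linked UMIs. The cause was not tested. Pooled Igf1 stayed between -0.47 and -0.34, Igf2r between -0.62 and -0.39, Igfbp3 between -2.0 (dividing cells left out) and -0.76, Igfbp4 between 0.29 and 0.78 and Igfbp6 between -1.19 and -0.84. Depth limits Igf1r in every class, and cell number limits macrophage-like, oligodendrocyte-lineage-like and ciliated cells.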
